A study of Mus musculus with 18 samples.

Results

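Chromatin accessibility was examined at 41 genes that carry cells through DNA replication and mitosis or control that programme, out of 21887 protein-coding genes of the mouse. They were chosen by name and comprise 10 licensing and replication genes, 9 cyclins and cyclin-dependent kinases (CDKs), the 3 Cdc25 phosphatases, 8 mitotic genes, the activators E2f1 to E2f3, the repressors E2f4 to E2f8 and the 3 pocket protein genes Rb1, Rbl1 and Rbl2. A peak row belonged to a gene if its summit lay in the gene body or within 50 kb of it, and each row went to the nearest of the 41 genes. This took 3572 of the 597826 rows of 6 peak lists. Rows that overlapped in a list were merged into regions.

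The 18 samples were assayed by ATAC-seq, in which the transposase Tn5 cuts and tags DNA that is not covered by nucleosomes. Kmt2c knockout (KO) HPC (2 samples), wild-type (WT) HPC (4), KO HSC (2) and WT HSC (2) came from mice of 8 weeks. The KO cells were Kmt2c f/f with Vav-Cre, a recombinase driven in blood cells, and accessible regions give no check of the deletion. The other groups were WT HSC of 16-week mice given 5-fluorouracil (5-FU, 4 samples), which is toxic to cells in S phase, in 3 injections of 150 mg/kg spaced 3 weeks apart, or the vehicle PBS on that schedule (4 samples). HSC are haematopoietic stem cells and HPC the more mature progenitors. The labels give no surface markers for the sort and no cell cycle state. All samples of a group share 1 peak list, so every value below is of a pool and has no replicate error.

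Replication origins are licensed in G1 phase when Cdc6 and Cdt1 load the Mcm2 to Mcm7 helicase, and they fire in S phase under cyclin E and cyclin A with Cdk2. Pocket proteins hold E2F factors at promoters in resting cells, and cyclin D with Cdk4 phosphorylates the pocket proteins so that E2f1 to E2f3 can act. Genes of S phase are known for E2F sites, and genes of mitosis for a cell cycle homology region (CHR) near the start, often with CCAAT boxes, through which they are repressed in G0 and switched on in G2. Adult stem cells in the marrow are mostly quiescent and progenitors mostly cycle, and that known difference is the frame for setting HPC beside HSC.

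Promoter sequences show which of these letters each gene carries. The 250 bases before the start are printed from the RefSeq promoter table of GRCm38.p6, in lower case, with capitals marking an E2F form (TTCGCGC or TTGGCGC or TTCCCGC or TTGCCGC), the CHR letters TTTGAA or the CCAAT box, on either strand. E2F forms can overlap each other. Licensing genes come first, because 7 of the 10 licensing promoters in that table held an E2F form. The printed ones are Mcm5 (chr8:75109259-75109508, plus strand), which encodes a helicase subunit, Mcm6 (chr1:128359706-128359955, minus strand), another subunit and Cdc6 (chr11:98907901-98908150, plus strand).
Mcm5: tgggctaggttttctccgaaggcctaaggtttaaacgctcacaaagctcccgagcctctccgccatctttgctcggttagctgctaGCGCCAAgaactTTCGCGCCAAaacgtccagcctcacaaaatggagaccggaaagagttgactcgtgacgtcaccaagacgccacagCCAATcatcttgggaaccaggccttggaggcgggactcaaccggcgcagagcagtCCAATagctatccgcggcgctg
Mcm6: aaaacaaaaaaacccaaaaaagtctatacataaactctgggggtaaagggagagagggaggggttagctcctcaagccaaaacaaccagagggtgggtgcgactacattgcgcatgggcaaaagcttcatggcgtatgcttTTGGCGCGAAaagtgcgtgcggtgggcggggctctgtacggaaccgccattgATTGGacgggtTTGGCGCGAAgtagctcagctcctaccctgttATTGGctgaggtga
Cdc6: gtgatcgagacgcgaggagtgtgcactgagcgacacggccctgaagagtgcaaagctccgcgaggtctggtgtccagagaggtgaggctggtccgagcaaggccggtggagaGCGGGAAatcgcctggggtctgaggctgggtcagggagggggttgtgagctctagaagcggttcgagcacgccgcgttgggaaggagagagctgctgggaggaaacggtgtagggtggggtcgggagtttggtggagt

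Cyclin F and the mitotic genes printed next show a CHR close to the start with CCAAT letters before it, and in Cdc20 also after. They are Ccnf (chr17:24251410-24251659, minus strand), the cyclin that gives a ubiquitin ligase its substrates, Cdc20 (chr4:118437344-118437593, minus strand), which activates the anaphase-promoting complex, and Top2a (chr11:99024190-99024439, minus strand), which untangles replicated DNA.
Ccnf: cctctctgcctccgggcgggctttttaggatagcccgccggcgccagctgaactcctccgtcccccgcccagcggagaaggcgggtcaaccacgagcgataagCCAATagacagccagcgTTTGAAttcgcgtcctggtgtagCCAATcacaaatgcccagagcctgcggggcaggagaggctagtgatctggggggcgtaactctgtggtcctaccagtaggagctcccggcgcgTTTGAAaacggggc
Cdc20: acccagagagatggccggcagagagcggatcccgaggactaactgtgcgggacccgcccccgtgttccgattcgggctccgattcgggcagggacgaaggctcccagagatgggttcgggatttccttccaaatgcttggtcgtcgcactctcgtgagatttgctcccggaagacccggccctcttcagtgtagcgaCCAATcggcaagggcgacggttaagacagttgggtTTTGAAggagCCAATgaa
Top2a: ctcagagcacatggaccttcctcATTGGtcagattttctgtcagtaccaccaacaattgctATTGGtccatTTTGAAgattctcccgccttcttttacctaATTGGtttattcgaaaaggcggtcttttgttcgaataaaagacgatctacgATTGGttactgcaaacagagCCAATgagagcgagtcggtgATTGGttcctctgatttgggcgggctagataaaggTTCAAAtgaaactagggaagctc

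E2f3 (chr13:29986064-29986313, minus strand) holds E2F, CHR and CCAAT letters in its promoter and had the strongest start region of the 41 genes by its median rank within the lists, although Ccna2 ranked above it in KO HPC. Cdk2 (chr10:128705052-128705301, minus strand), the S phase kinase, and Rbl1 (chr2:157204535-157204784, minus strand) are printed because their starts were missing from some lists, and E2f6 (chr12:16810715-16810964, plus strand) because its start region was the weakest by the same median.
E2f3: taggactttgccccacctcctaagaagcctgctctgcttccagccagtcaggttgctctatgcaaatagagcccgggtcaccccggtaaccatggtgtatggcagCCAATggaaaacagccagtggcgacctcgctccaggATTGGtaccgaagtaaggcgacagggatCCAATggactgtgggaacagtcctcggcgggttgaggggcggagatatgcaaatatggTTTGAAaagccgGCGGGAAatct
Cdk2: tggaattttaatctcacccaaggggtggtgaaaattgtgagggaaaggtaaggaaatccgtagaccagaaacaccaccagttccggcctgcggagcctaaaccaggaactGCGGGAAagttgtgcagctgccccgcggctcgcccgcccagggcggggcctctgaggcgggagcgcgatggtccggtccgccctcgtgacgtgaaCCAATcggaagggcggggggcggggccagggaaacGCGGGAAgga
Rbl1: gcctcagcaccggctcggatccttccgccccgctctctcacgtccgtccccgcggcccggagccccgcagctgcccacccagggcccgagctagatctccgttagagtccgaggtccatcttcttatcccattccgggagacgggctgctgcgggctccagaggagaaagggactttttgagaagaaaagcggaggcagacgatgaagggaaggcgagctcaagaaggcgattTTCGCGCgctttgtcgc
E2f6: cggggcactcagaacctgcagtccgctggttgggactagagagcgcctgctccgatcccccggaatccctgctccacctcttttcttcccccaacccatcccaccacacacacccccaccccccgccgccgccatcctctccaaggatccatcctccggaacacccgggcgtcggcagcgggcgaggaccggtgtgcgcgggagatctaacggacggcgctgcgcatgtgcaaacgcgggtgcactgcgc

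The promoter table covered 33 of the 41 genes with 36 promoters, each read from 250 bases before to 50 after the start. An E2F form lay in 17 of them (47.2%), against 12.1% of all 21263 protein-coding promoters and 18.1% of the 10008 promoters open in all 6 lists. CHR letters lay in 14 (38.9%), against 16.0% of all promoters and 11.1% of the open ones, and a CCAAT box in 27 (75.0%), against 38.2% and 40.2%. At least 2 matches to an E2F form were found in 10 of the 36 (27.8%) and in 1.63% of all promoters. A list of 64 other S phase and mitosis genes, with 63 promoters, gave 39.7% for E2F, 47.6% for CHR and 55.6% for CCAAT. The 41 genes were chosen as cell cycle genes, so these shares describe the choice.

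The letters divided by role. Of the 10 licensing promoters 7 held an E2F form, 1 (Mcm2) held CHR letters and 8 held a CCAAT box. These are promoters and not genes: Mcm7 has more than 1 of them, each with an E2F form, and Mcm4 has none. Of the 7 mitotic promoters 1 (Mki67, the gene of the Ki-67 antigen) held an E2F form, 6 held CHR letters and all 7 a CCAAT box. Where a promoter of the 41 genes held CHR letters, they began within 50 bases of the start in 11 of 14 (78.6%), against 24.4% of all promoters with these letters. In Cdc20 they began 18 bases before the start, in Top2a 23, in E2f3 23 and in Ccnf 14. The printed run of Mcm6 holds TTGGCGC joined with TTCGCGC, overlapping on opposite strands in 2 places, the nearer beginning 46 bases before the start. The E2f6 window held none of the 3 motifs, which says only that these letters are not in it.

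**Figure D1:**
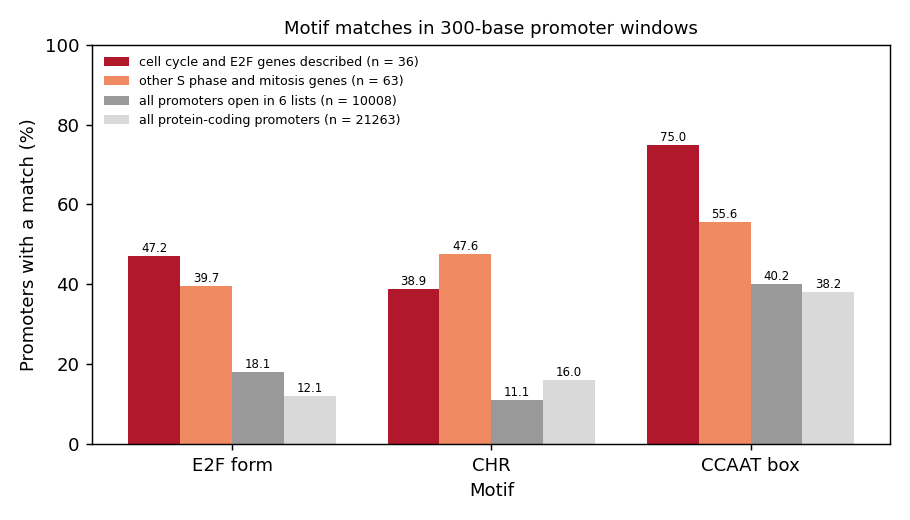
Share of promoters (vertical axis, %) whose 300-base window holds an E2F form, CHR letters or a CCAAT box, for the 36 promoters of the genes described, 63 promoters of other S phase and mitosis genes, the 10008 promoters open in all 6 lists and all 21263. The genes described had 47.2%, 38.9% and 75.0%, above the open promoters and all promoters for each motif, and below the other S phase and mitosis genes for CHR.

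The lists held 52840 regions in KO HPC, 65832 in WT HPC, 48620 in KO HSC, 40073 in WT HSC, 71363 in 5-FU HSC and 80100 in PBS HSC, and a list grows with depth and with samples pooled, which the sources used here do not separate. The 41 genes had 292, 349, 289, 243, 381 and 408 of these regions, in the same order of groups, between 0.509% and 0.606% of a list. Start regions of the 10 fixed blood stem and progenitor markers were present for 8 in KO HPC and WT HSC and for 10 in the other lists. The T cell markers Cd3d, Cd3e and Cd8a and the non-blood markers Alb, Myh6 and Neurod1 had no start region in any list. With the gene body counted too, 2 of 3 T cell markers had a region in each HPC list and 1 in each HSC list. Of the non-blood markers 3 had one in KO HPC, WT HPC and 5-FU HSC, 2 in KO HSC and PBS HSC and 0 in WT HSC. Of the myeloid markers Mpo, Elane and Cebpe, 2 had a start region in PBS HSC and none did elsewhere, and Elane had no region at all. The erythroid markers had 2 of 3 starts in KO HPC and 3 of 3 in the other lists. Of the endothelial and stromal markers Cdh5, Pdgfra and Col1a1, 1 start was open in WT HPC, WT HSC, 5-FU HSC and PBS HSC, with none in the other lists. The part of other cells in any result was not tested. In such pools, fewer cells with an open site and less opening per cell cannot be told apart.

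Nearly every start site of the 41 genes was accessible, in stem cells as in progenitors. A region lay within 1 kb of the start for 40 of 41 genes in KO HPC, 41 in WT HPC, 40 in KO HSC, 39 in WT HSC, 41 in 5-FU HSC and 41 in PBS HSC. Over all protein-coding genes this held for 54.9% in KO HPC, 59.7% in WT HPC, 55.7% in KO HSC, 52.2% in WT HSC, 63.6% in 5-FU HSC and 65.5% in PBS HSC. Of the 64 other S phase and mitosis genes, 61 to 63 had one. The missing starts were those of Rbl1, in KO HPC, KO HSC and WT HSC, and of Cdk2, in WT HSC. These lists were shorter than the others, and WT HSC was the shortest. In WT HPC the Rbl1 start stood only at the percentile 14.4 of its list. A missing region therefore does not show that a start is closed. For 8 genes either end of the gene stood for the start. Of these E2f4 had a region at both ends in KO HSC, at the 41.3th percentile at its lower end and 44.3 at its upper end, and the stronger was at the lower end in the other lists.

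The strength of a region is given as its percentile of −log10 p among the regions of its own list, and its fold enrichment as the peak caller's ratio of signal to local background; both are the authors' values and are compared within a list. The median start region of the 41 genes stood at the 80.6th percentile in KO HPC, 87.6 in WT HPC, 83.4 in KO HSC, 83.6 in WT HSC, 91.3 in 5-FU HSC and 91.8 in PBS HSC. The medians for all genes with a start region were 68.2, 72.0, 70.6, 68.6, 81.0 and 82.2 in the same order. Start regions of 9 genes were in the strongest 10% of every list. They were the licensing genes Cdc6, Mcm3, Mcm5 and Mcm10, the cyclins Ccna2 and Ccnf, Cdc25c, Cdc20 and E2f3. Start regions in general are strong. In KO HPC, 22.5% of the start regions of the 41 genes were in the strongest 10%, against 18.4% over all genes. The shares were 34.1% against 21.2% in WT HPC, 37.5% against 21.3% in KO HSC and 33.3% against 19.8% in WT HSC. In 5-FU HSC they were 53.7% against 30.7%, and in PBS HSC 61.0% against 32.7%. No share over all genes was made for every list together.

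Licensing and replication genes had start regions with medians of 89.8 in KO HPC, 92.8 in WT HPC, 90.8 in KO HSC, 88.5 in WT HSC, 95.1 in 5-FU HSC and 96.1 in PBS HSC. Mcm5 had a fold enrichment of 25.3 in KO HPC, 27.8 in WT HPC, 29.6 in KO HSC, 29.3 in WT HSC, 22.8 in 5-FU HSC and 23.7 in PBS HSC, and stood between the percentiles 92.3 and 96.5. Mcm10, which helps the loaded helicase to unwind DNA, stood between 95.3 and 97.1. Mcm2 was the weakest of the 10, with percentiles of 51.4 in KO HPC, 58.1 in WT HPC, 57.6 in KO HSC, 31.0 in WT HSC, 69.8 in 5-FU HSC and 76.0 in PBS HSC. The other subunits of the same helicase had medians over the lists between 73.5 for Mcm7 and 95.3 for Mcm3.

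Among the cyclins, Ccna2, the cyclin of S and G2 phase, had a fold enrichment of 35.4 in KO HPC, 35.7 in WT HPC, 36.1 in KO HSC, 36.2 in WT HSC, 28.8 in 5-FU HSC and 27.8 in PBS HSC. It ranked 142 in KO HPC, 198 in WT HPC, 154 in KO HSC, 130 in WT HSC, 295 in 5-FU HSC and 283 in PBS HSC among all regions of each list. Ccnf had 22.6, 26.9, 31.3, 28.5, 26.5 and 27.2 in that order and stood at or above the 96.4th percentile throughout. Of the 3 kinases, Cdk1, which drives mitotic entry, had a median over the lists of 83.5, beside 86.7 for Ccnb2, 82.8 for Ccnb1, 81.3 for Ccne2 and 67.0 for Ccne1. The lowest medians among cyclins and CDKs were those of Cdk4 and Cdk2. Cdk4 stood at 23.2 in KO HPC, 57.4 in WT HPC, 52.0 in KO HSC, 42.1 in WT HSC, 77.3 in 5-FU HSC and 79.4 in PBS HSC. Cdk2 stood at 35.4 in KO HPC, 37.3 in WT HPC, 27.8 in KO HSC, 69.6 in 5-FU HSC and 73.0 in PBS HSC and had no start region in WT HSC. The Cdc25 phosphatases, which remove inhibitory phosphates from CDKs, all stood at or above a percentile of 80.3 in every list.

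Mitotic genes ranged widely. Cdc20 had a fold enrichment of 27.8 in KO HPC, 27.5 in WT HPC, 28.5 in KO HSC, 26.7 in WT HSC, 25.2 in 5-FU HSC and 23.8 in PBS HSC. Mki67, the usual protein marker of cycling cells, had 17.2 in KO HPC, 18.5 in WT HPC, 15.8 in KO HSC, 15.1 in WT HSC, 18.1 in 5-FU HSC and 16.5 in PBS HSC. The Mki67 start was thus present in the stem cell lists as well as the progenitor lists, at percentiles of 72.5 in KO HSC, 65.6 in WT HSC, 89.6 in 5-FU HSC and 89.4 in PBS HSC, beside 80.6 in KO HPC and 87.6 in WT HPC. Plk1, a kinase of mitotic entry, stood at 27.7 in KO HPC, 62.2 in WT HPC, 53.6 in KO HSC, 32.0 in WT HSC, 73.0 in 5-FU HSC and 80.6 in PBS HSC. Bub1, a kinase of the spindle checkpoint, had a median over the lists of 48.6, while Bub1b, its partner in that checkpoint, had 90.0.

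The E2F genes held both the strongest and the weakest start of the 41 by the median percentile over the lists. E2f3 had a fold enrichment of 21.3 in KO HPC, 23.0 in WT HPC, 24.7 in KO HSC, 24.8 in WT HSC, 19.6 in 5-FU HSC and 18.7 in PBS HSC, and ranked between 55 in KO HSC and 364 in KO HPC. E2f6, a repressor that acts without pocket proteins, had 11.7 in KO HPC, 10.3 in WT HPC, 7.39 in KO HSC, 8.62 in WT HSC, 10.5 in 5-FU HSC and 11.3 in PBS HSC. Its percentile was 30.7 in KO HPC, 32.7 in WT HPC, 5.10 in KO HSC, 8.47 in WT HSC, 56.6 in 5-FU HSC and 62.8 in PBS HSC, so its start was close to the bottom of both 8-week HSC lists. The median over the lists was 94.4 for the activator E2f1 and 51.0 for the activator E2f2. For the atypical repressors E2f7 and E2f8, which bind DNA without a partner subunit, it was 88.1 and 88.2.

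The pocket protein genes Rb1 and Rbl1 had lower start percentiles than Rbl2 in every list where they had a region. Rb1 had a fold enrichment of 9.70 in KO HPC, 11.0 in WT HPC, 10 in KO HSC, 9.82 in WT HSC, 10.2 in 5-FU HSC and 9.66 in PBS HSC, and percentiles between 23.5 in KO HPC and 69.2 in PBS HSC. The start of Rbl1 had 7.79 in WT HPC, 8.32 in 5-FU HSC and 9.31 in PBS HSC, and percentiles of 14.4, 51.6 and 57.1 in that order. Rbl2, the pocket protein best known from quiescent cells, stood at 82.4 in KO HPC, 87.7 in WT HPC, 87.8 in KO HSC, 83.6 in WT HSC, 91.3 in 5-FU HSC and 91.1 in PBS HSC. By promoter letters, the median start percentile was 86.1 for 16 genes with an E2F form, 87.2 for 14 with CHR letters and 77.1 for 8 with neither. The ranges of all 3 sets overlapped, and 5 genes (Cdk1, E2f2, E2f3, E2f8 and Mki67) were in both of the first sets. E2f2, the lowest of those with CHR letters at 51.0, holds them in a different promoter from the one at its scored start region.

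**Figure D2:**
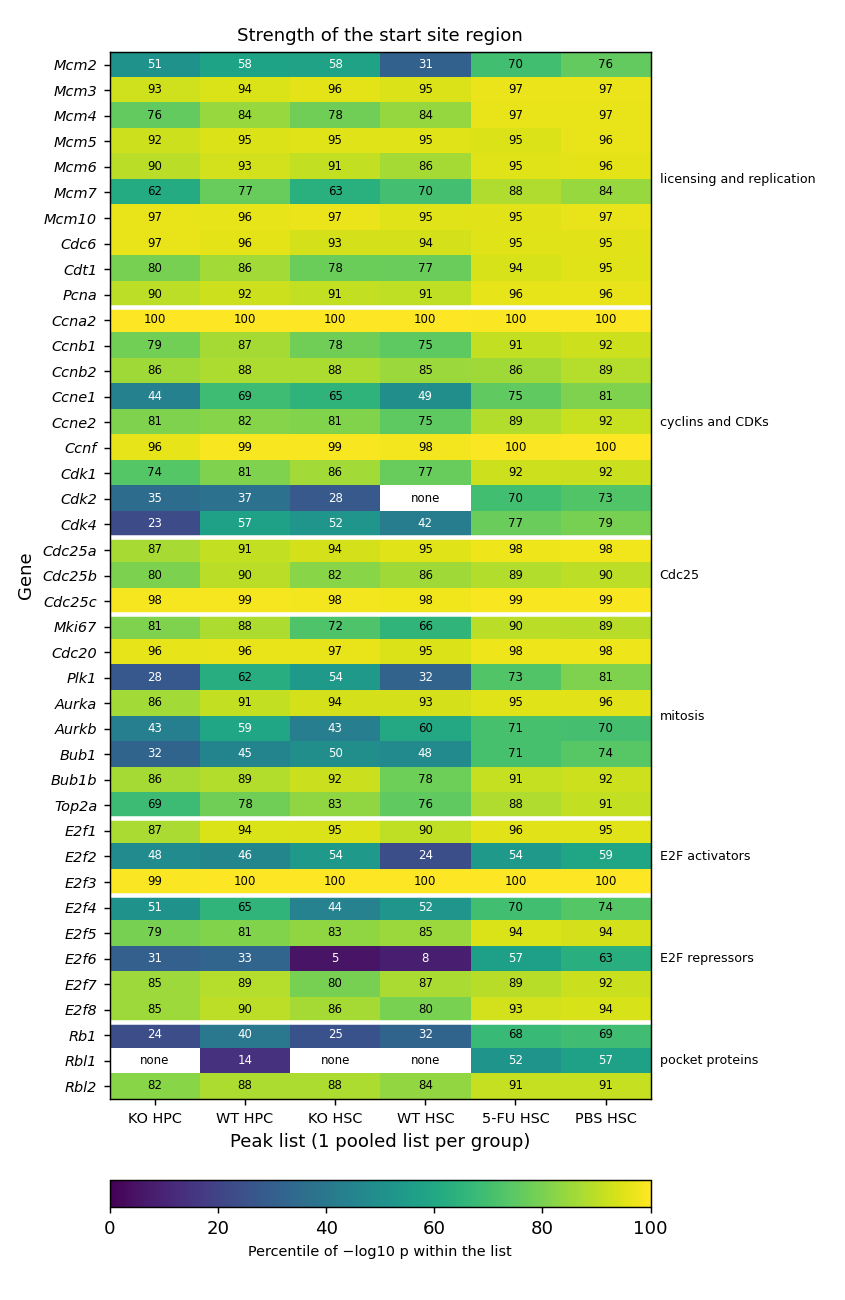
Percentile of −log10 p within its own list (colour and number, 0 to 100) of the region at the start of each of the 41 genes, with genes in rows by role and the 6 pooled peak lists in columns; "none" marks a start without a region. E2f3, Ccna2 and Ccnf are near the top of every list, E2f6, Rb1, Cdk2 and Rbl1 have some of the lowest values, and columns should not be read against each other because the lists differ in length.

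Around the genes, Aurkb, the kinase of the chromosomal passenger complex, had the most regions over the union of the lists, 28, followed by Cdc6 and Rb1 with 22 each and Bub1b with 20, the same number as E2f4. Mcm10 and Mcm4 had 3 each, Cdk1 had 4 and Mcm3 had 5. Aurkb had 20 in KO HPC, 19 in WT HPC, 17 in KO HSC, 18 in WT HSC, 24 in 5-FU HSC and 25 in PBS HSC. In the union, 134 of the 452 regions had one of the 41 genes as their nearest protein-coding gene and the others lay closer to a neighbour. Distance was the only link made between a region and a gene. At the edge of the 50 kb window, the last rows inside belonged to Mcm7 at 49906 bp in PBS HSC and 49910 bp in WT HPC, and the first outside to Cdt1 at 50008 bp in PBS HSC and 50049 bp in 5-FU HSC.

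**Figure D3:**
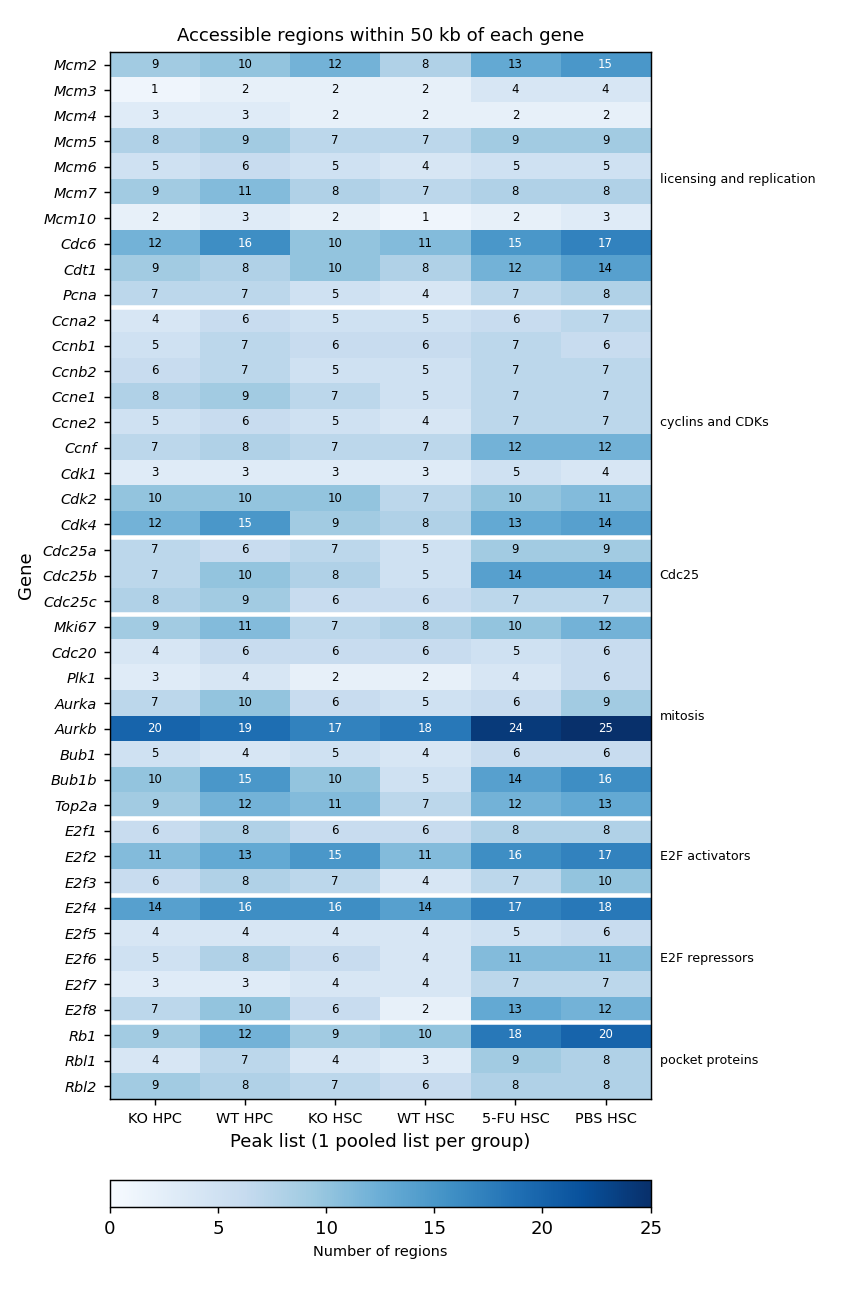
Number of merged regions (colour and number) assigned to each of the 41 genes within 50 kb in each pooled list. Aurkb has 17 to 25 regions in every list, Mcm10 has 1 to 3 and E2f8 has 2 in WT HSC against 6 to 13 in the other lists.

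Regions near the 41 genes were shared by all 6 lists more often than regions of the genome as a whole. Of the 452 union regions 203 (44.9%, 95% Wilson interval 40.4 to 49.5) were in all 6 lists, against 32.2% of all 94178. Of the 203, 113 lay at a start site of any gene and 90 lay away from starts. Regions found in a single list were 47 (10.4%), against 18.1% of all. By list, 4 were only in KO HPC (0.885%, against 1.32% of all), 15 only in WT HPC (3.32%, against 4.88%), none only in KO HSC (against 0.310%), 1 only in WT HSC (0.221%, against 0.0573%), 5 only in 5-FU HSC (1.11%, against 2.76%) and 22 only in PBS HSC (4.87%, against 8.74%). Another 47 (10.4%, against 10.8%) were in both 16-week lists and no other. The intervals cover counting error alone, and neighbouring regions are not independent.

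Several of the shared regions away from starts were among the strongest of their lists. A region 19467 bp from Mki67 (chr7:135735468-135736698, mm10) had a fold enrichment of 24.6 in KO HPC, 25.6 in WT HPC, 27.4 in KO HSC, 22.3 in WT HSC, 17.1 in 5-FU HSC and 17.8 in PBS HSC, and never stood below the 96.1th percentile. Inside Cdc6 (chr11:98917347-98918816) the values were 32.2 in KO HPC, 29.8 in WT HPC, 25.2 in KO HSC, 21.5 in WT HSC, 19.0 in 5-FU HSC and 19.0 in PBS HSC. In both HPC lists this Cdc6 region stood near the top, with percentiles of 99.5 in KO HPC and 99.6 in WT HPC, beside 94.3 in KO HSC, 91.8 in WT HSC, 95.9 in 5-FU HSC and 95.4 in PBS HSC. Other shared regions lay inside Rbl2 (chr8:91077197-91078059) and E2f2 (chr4:136177237-136178992) and beside E2f8, E2f3 and E2f7, with medians over the lists between 85.8 and 93.2. In single lists some stood lower, at 60.5 for E2f7 and 71.4 for Rbl2 in KO HPC and 78.8 for E2f8 in KO HSC.

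Progenitors were set against stem cells in several pairs of lists. In WT cells, 119 of the 349 WT HPC regions (34.1%, 29.3 to 39.2) had no overlap in the WT HSC list, against 44.6% of all WT HPC regions. In the other direction 14 of 243 WT HSC regions (5.76%, 3.46 to 9.44) had none in WT HPC, against 8.77% of all. More regions found only in WT HPC than only in WT HSC lay near 34 of the 41 genes, and E2f7 alone had more only in WT HSC. These counts take every region within 50 kb. With each region given to the nearest of all protein-coding genes, 12 of the 41 (29.3%) had more only in WT HPC and 2 (4.88%) more only in WT HSC, against 44.3% and 3.07% of all genes counted in that way. The share of the 41 genes with more in WT HPC was thus below that of all genes on the same assignment. The largest net numbers only in WT HPC were 10 for Bub1b, 8 for E2f8 and 7 for Cdk4, followed by 5 each for Aurka, a kinase of the spindle poles, Cdc25b, Cdc6 and Top2a. With both lists held to the same number of regions, the net was 2 for Bub1b, 2 for E2f8, 2 for Cdk4 and 1 for Aurka, and 14 genes had more only in WT HPC and 18 more only in WT HSC. By nearest gene of all it was 4 for Bub1b, 5 for E2f8 and 0 for Cdk4 and Aurka. Here and in the comparisons below, no count over all genes was made at equal list length, so such splits have no background.

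KO HPC and KO HSC, with 2 samples in each list, were the closest in length. Of 292 KO HPC regions 48 (16.4%, 12.6 to 21.1) had no overlap in KO HSC, against 27.8% of all, and of 289 KO HSC regions 48 (16.6%, 12.8 to 21.3) had none in KO HPC, against 21.9%. Near 14 of the genes more regions were found only in KO HPC and near 14 more only in KO HSC, and 13 and 17 at equal list length. By nearest gene of all it was 8 (19.5%) and 6 (14.6%), against 22.4% and 15.4% of all genes. Aurkb and Cdk4 each had 3 only in KO HPC and none only in KO HSC, while E2f2 had 1 only in KO HPC and 5 only in KO HSC and Mcm2 had none and 3. Against PBS HSC, which like WT HPC pools 4 samples but from mice of 16 weeks, 36 of 349 WT HPC regions (10.3%, 7.54 to 14.0) had no overlap, against 15.2% of all, and 104 of 408 PBS HSC regions (25.5%, 21.5 to 29.9) had none in WT HPC, against 32.9%. There 8 genes had more regions only in WT HPC, each by a net of 1, and 27 had more only in PBS HSC, led by Rb1 with 2 only in WT HPC and 11 only in PBS HSC. At equal list length 15 had more in WT HPC and 15 more in PBS HSC. By nearest gene of all it was 2 (4.88%) and 16 (39.0%), against 9.52% and 36.1% of all genes.

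Few regions followed the cell type through every list. Of the 452 union regions 14 (3.10%) were in both HPC lists and no HSC list, against 4.02% of all, and 31 (6.86%) were in both HPC lists and neither 8-week HSC list, against 10.2%. The strongest of the 14 in WT HPC lay 13815 bp from Rb1 (chr14:73339469-73340119), with a fold enrichment of 26.5 in KO HPC and 29.3 in WT HPC. In KO HPC it stood at the percentile 76.1, below the Cdk4 region that follows, at 81.3. Others were a region 43926 bp from Cdk4 and closer to Os9 (chr10:127110938-127111410), with 15 in KO HPC and 13.5 in WT HPC, a region near Cdc25c with 23.8 and 24.5, and a region 4216 bp from Ccnb2, which encodes a B-type cyclin of mitosis, with 21.0 and 21.3 (chr9:70403224-70403733). Weaker regions of the same pattern lay nearest to Mcm5 (chr8:75154938-75155407) and Cdc6 (chr11:98924841-98925342). Their percentiles were 31.9 and 23.7 in KO HPC and 21.1 and 21.0 in WT HPC, in that order of genes. The strongest region in WT HPC that WT HSC lacked lay 20532 bp from Cdc25a and closer to Map4 (chr9:109914257-109914713), with a fold enrichment of 31.9 and a percentile of 89.0. The strongest in KO HSC that KO HPC lacked lay 39528 bp from Mcm6 and closer to Dars (chr1:128398955-128399607), with 26.7.

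In all 4 HSC lists and neither HPC list there were 4 regions (0.885%), against 1.83% of all, and in both 8-week HSC lists and neither HPC list there were 5 (1.11%), against 1.94%. With all lists at the length of the shortest, the regions in all 4 HSC lists and neither HPC list came to 5.97%, against 5.48% of all, so that they were no longer below all regions. The 4 lay near Rb1 (chr14:73179053-73179692 and chr14:73369999-73371395), near Cdk2 (chr10:128720298-128720848, nearest to Dgka) and inside Mcm3 (chr1:20803062-20804056). The first, 13550 bp beyond the lower end of Rb1 and nearest to Rcbtb2, had a fold enrichment of 10.9 in KO HSC, 10 in WT HSC, 9.33 in 5-FU HSC and 11.6 in PBS HSC. It was the strongest region in PBS HSC without overlap in WT HPC, at the 85.4th percentile, and the strongest in WT HSC without overlap in WT HPC, at 52.2.

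Rb1, the retinoblastoma gene (chr14:73192858-73325951), thus had regions of both patterns near it. Beyond its upper end, where the start region lies, were both HPC regions, that at 13815 bp and another at 8135 bp (chr14:73333831-73334270) with 13 in KO HPC and 18.9 in WT HPC. Of the 2 HSC regions, that at 13550 bp lay beyond the lower end, and that at 44921 bp, nearest to Itm2b, lay beyond the upper end, farther out than the HPC regions. Inside the gene a region in all 6 lists (chr14:73222276-73222961) stood at the 80.1th percentile in KO HPC, 78.0 in WT HPC, 31.7 in KO HSC, 5.14 in WT HSC, 52.5 in 5-FU HSC and 49.6 in PBS HSC, with fold enrichments of 26.3, 26.1, 15.8, 9.66, 14.6 and 13.3 in that order. Both HPC values were above all 4 HSC values on either measure, which describes a region picked after its values were seen, in lists of unequal length. Rb1 had 9 regions in KO HPC, 12 in WT HPC, 9 in KO HSC, 10 in WT HSC, 18 in 5-FU HSC and 20 in PBS HSC. Rb1 was named by the rule for its counts, and the map was drawn after its regions had been seen.

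**Figure D4:**
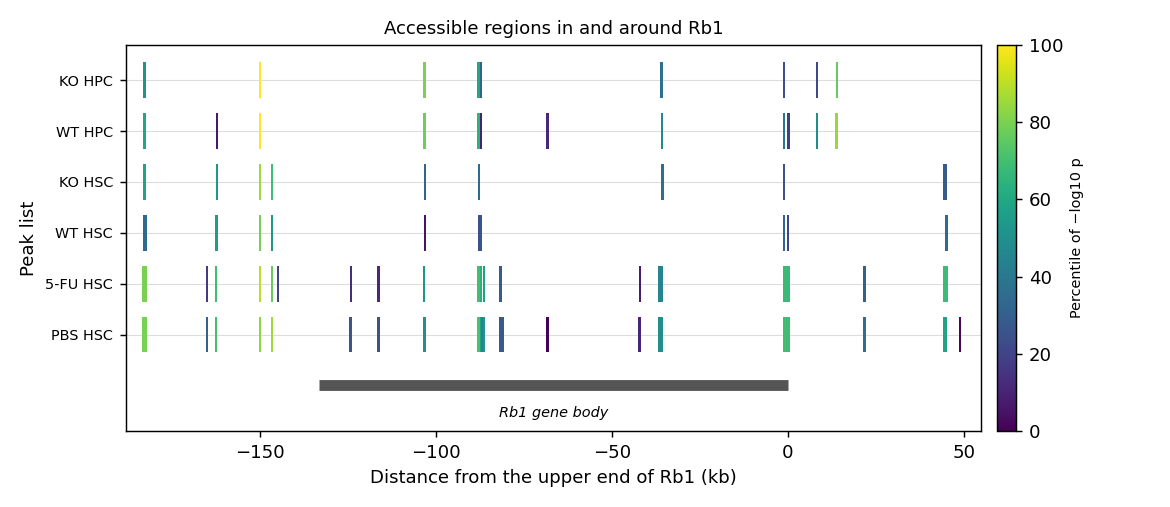
Merged regions in and around Rb1 in each pooled list, by distance from the upper end of the gene (horizontal axis, kb), coloured by percentile of −log10 p within the list, with the gene body as a grey bar; narrow regions are drawn wider than they are so that they can be seen. The regions just to the right of the start, at 8135 and 13815 bp, are in the 2 HPC lists and no HSC list, and that at 44921 bp is in the 4 HSC lists and no HPC list.

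Loss of Kmt2c, a histone H3 lysine methyltransferase found at enhancers, was set against WT in each cell type. In HSC, 63 of 289 KO regions (21.8%, 17.4 to 26.9) had no overlap in WT HSC, against 25.9% of all KO HSC regions, and 18 of 243 WT regions (7.41%, 4.74 to 11.4) had none in KO HSC, against 9.99%. In HPC the longer list was the WT one: 15 of 292 KO HPC regions (5.14%, 3.14 to 8.30) had no overlap in WT HPC, against 6.96% of all, and 74 of 349 WT HPC regions (21.2%, 17.2 to 25.8) had none in KO HPC, against 25.9%. No region near the 41 genes was in both KO lists and no other list (against 0.0287% of all), and 3 of 452 (0.664%, against 0.847% of all), near Mcm7, Mki67 and Aurkb, were in all 4 WT lists and neither KO list. The Mcm7 region has its strongest summit 50186 bp from the gene and was counted through weak rows just inside 50 kb, at 49906 bp in PBS HSC and 49910 bp in WT HPC.

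By gene, 23 of the 41 had more regions only in KO HSC and 5 more only in WT HSC, over every region within 50 kb. By nearest gene of all it was 10 (24.4%) and 1 (2.44%), against 26.4% and 6.64% of all genes, so neither share was above that of all genes. Bub1b had 5 only in KO HSC and none only in WT HSC, E2f2 had 5 and 1, E2f8 had 4 and none, Mcm2 had 4 and none, and Top2a had 5 and 1. At equal list length the net, KO minus WT, was 1 for Bub1b, 2 for E2f2, 4 for E2f8 and 0 for Mcm2. In HPC, 4 genes had more only in KO HPC and 30 more only in WT HPC. By nearest gene of all it was 4 (9.76%) and 9 (22.0%), against 4.35% and 33.4% of all genes. Bub1b there had none only in KO HPC and 5 only in WT HPC, Cdc6 had 1 and 5, and Aurka and Cdc25b, among several genes with a net of -3, had none and 3 each. At equal list length the net, again KO minus WT, was 1 for Bub1b, 1 for Cdc25b, 0 for Aurka and -3 for Cdc6. At equal list length the split was 12 with more in KO HSC and 11 with more in WT HSC, and in HPC it was 13 with more in KO HPC and 14 with more in WT HPC. The strongest region only in KO HSC lay 24246 bp from Cdc25b (chr2:131222538-131222933), with a fold enrichment of 20.5 and a percentile of 59.2. The strongest only in WT HSC lay inside Rbl2 (chr8:91082061-91082310), with 7.85. In HPC they were a region near Mcm2 (chr6:88855522-88855969) with 13.6 in KO HPC and one near Ccnb2 (chr9:70371507-70371987) with 13.4 in WT HPC.

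After repeated 5-FU nearly all regions near these genes were those also found with PBS. Of 381 regions in 5-FU HSC 11 (2.89%, 1.62 to 5.10) had no overlap in PBS HSC, against 5.61% of all, and of 408 in PBS HSC 39 (9.56%, 7.07 to 12.8) had none in 5-FU HSC, against 16.2%. All 41 starts were open in both lists. Those 11 regions were weak, with a median percentile of 7.06 in 5-FU HSC, while the shared ones had 62.7. The 39 had 10.3 in PBS HSC and the shared ones 64.5. The strongest in 5-FU HSC alone lay 35940 bp from Bub1b and nearest to Pak6 (chr2:118676789-118677881), with a fold enrichment of 6.46 and a percentile of 20.5. The strongest in PBS HSC alone lay 31777 bp from E2f2 and nearest to Id3 (chr4:136140294-136140634), with 4.14 and 34.9. By gene, 3 had more only in 5-FU HSC (Ccnb1, E2f8 and Rbl1, by 1 each) and 21 had more only in PBS HSC, led by Aurka and E2f3 with 3 each and none in 5-FU HSC. By nearest gene of all it was 1 (2.44%) and 6 (14.6%), against 5.92% and 25.9% of all genes, both shares being below. At equal list length 13 genes had more in 5-FU HSC and 9 more in PBS HSC. No count over all genes was made at that length to set beside this split.

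In all 12 directions of these comparisons the share of regions found in a single list of the pair was lower near the 41 genes than over all regions, and in 8 the Wilson interval did not reach the value for all regions. The directions share lists and are not separate results. Regions at starts are shared more often everywhere, and 36.8% to 51.0% of the regions near the 41 genes lay at starts, against 19.2% to 28.9% of all regions. Within regions at starts the share was lower than over all start regions in 12 of 12 directions, with 1 interval apart. Away from starts it was lower in 10 of 12, with 1 interval apart.

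For KO HSC without WT HSC the share at starts was 11.8% (all start regions 13.5%), and away from starts it was 30.7% (all 30.3%). WT HSC without KO HSC had 4.84% at starts (all 5.46%) and 10.1% away from them (all 11.8%). In this pair the regions near the 41 genes and all regions had like shares, and away from starts the KO HSC share was the higher near the genes. KO HPC without WT HPC had 2.24% at starts (all 2.91%) and 7.59% away from them (all 8.23%). WT HPC without KO HPC had 9.15% at starts (all 14.6%) and 29.5% away from them (all 29.0%). Here too the share away from starts in the longer list, WT HPC, was above that of all such regions. 5-FU HSC without PBS HSC had 0.690% at starts (all 1.50%) and 4.24% away from them (all 6.69%). PBS HSC without 5-FU HSC had 2.67% at starts (all 5.57%) and 13.6% away from them (all 18.8%). With 5-FU and PBS, both shares were below those of all regions in both directions. WT HPC without WT HSC had 14.1% at starts (all 21.4%) and 47.8% away from them (all 51.0%). WT HSC without WT HPC had 2.42% at starts (all 3.20%) and 9.24% away from them (all 11.0%). In the WT pair the wider gap to all regions was at starts, in WT HPC. KO HPC without KO HSC had 5.22% at starts (all 10.2%) and 25.9% away from them (all 33.3%). KO HSC without KO HPC had 8.82% at starts (all 11.0%) and 23.5% away from them (all 25.8%). In the KO pair the gap was widest away from starts, in KO HPC. WT HPC without PBS HSC had 2.11% at starts (all 2.67%) and 15.9% away from them (all 18.7%). PBS HSC without WT HPC had 10.7% at starts (all 15.4%) and 34.1% away from them (all 37.1%). Both shares were below those of all regions in this pair as well.

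**Figure D5:**
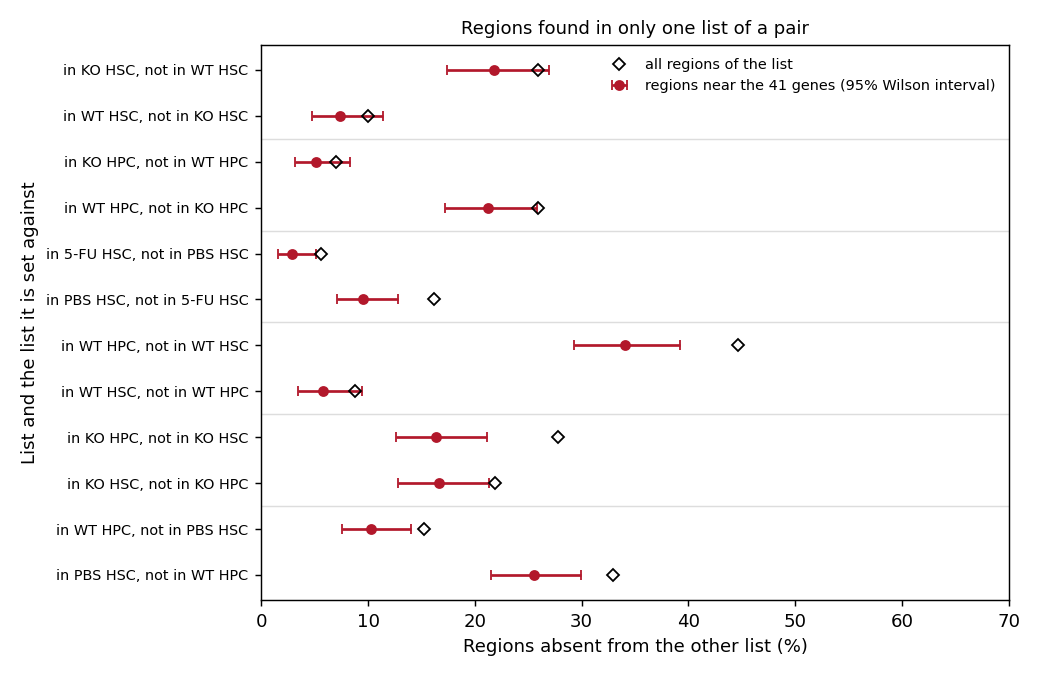
Share of regions (horizontal axis, %) of the first list that do not overlap any region of the second, for regions near the 41 genes (filled points with 95% Wilson intervals, counting error only) and for all regions of the list (open diamonds). The filled point is to the left of the diamond in all 12 directions, from 2.89% beside 5.61% in 5-FU HSC to 34.1% beside 44.6% in WT HPC.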

How the data were processed

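The 6 peak lists were deposited by the authors, 1 for each group. Per the submitters' processing notes Bowtie2, MACS2 and the mouse build mm10 (GRCm38) were used. Of the versions, the pooling of samples and the filters nothing is given in the sources used here, and the read depth of each sample is unknown. The labels give RNA as the molecule, at odds with an assay of DNA.

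Each deposited row holds a score (not used), a fold enrichment, which is a ratio to local background, a −log10 p, a −log10 q (not used) and a summit offset in bp, as the authors' peak caller wrote them. Rows overlapping by at least 1 bp were merged, and a region took the values of its row of highest −log10 p. Coordinates are counted from 1 on mm10, and genes and promoters are from RefSeq (GRCm38.p6). Starts came from the promoter table for 33 of the 41 genes and from either gene end for the other 8. The 41 genes, the other gene lists and the tests were chosen with earlier results of these data known.

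Named were starts missing from a list, up to 4 genes per comparison and direction by net list-specific regions, the strongest list-specific region of each direction, the 3 strongest and weakest starts, the 4 genes with most and fewest regions, and up to 6 regions of each pattern. Genes outside this rule were chosen after their values were seen, for their role. No model was fitted and no p-value computed, since a group has 1 list. Shares carry 95% Wilson intervals, for counting error only. Alternatives were a summit within 200 bp, removal of the weakest 25%, equal list lengths, a window of 10 kb, the nearest gene of all, no region within 1 kb and a start window of 500 bp. Region merging and overlap were tested on simulated data. Python 3.11.15, pandas 2.3.3, numpy 2.4.6, scipy 1.17.1 and matplotlib 3.10.9 were used.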

Additional observations from a re-analysis of the deposited data

How the results depend on the processing

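No paired analysis was possible because each list pools the samples of its group, and for the same reason no replicate could be left out. Shares of regions near the 41 genes without overlap in the other list moved beyond their interval as follows. At equal list length they were 13.4% for KO HSC without WT HSC (all regions 15.3%), 8.56% for KO HPC without WT HPC (12.7%), 10.5% for WT HPC without KO HPC (13.5%), 6.56% for 5-FU HSC without PBS HSC (8.93%), 4.57% for PBS HSC without 5-FU HSC (9.41%), 17.6% for WT HPC without WT HSC (24.3%), 18.9% for WT HSC without WT HPC (23.7%) and 17.5% for PBS HSC without WT HPC (24.2%). With the weakest 25% removed they were 4.62% for WT HSC without KO HSC (5.77%) and 0.940% for 5-FU HSC without PBS HSC (2.52%). Within 10 kb of the genes they were 14.5% for WT HPC without KO HPC, 6.41% for PBS HSC without 5-FU HSC, 3.19% for WT HSC without WT HPC, 11.4% for KO HSC without KO HPC and 6.11% for WT HPC without PBS HSC. Where 1 of the 41 genes was the nearest of all, they were 14.1% for WT HPC without KO HPC, 6.40% for PBS HSC without 5-FU HSC, 11.5% for KO HSC without KO HPC, 7.07% for WT HPC without PBS HSC and 30.4% for PBS HSC without WT HPC. Neither setting changes the shares over all regions, which are 25.9% for WT HPC without KO HPC and 16.2% for PBS HSC without 5-FU HSC. Shares over regions equally close to any gene were not computed, so these shifts cannot be called a trait of the 41 genes. Counting as absent only regions with none within 1 kb gave 3.08% for KO HPC without WT HPC (5.78%) and 20.1% for PBS HSC without WT HPC (28.9%). Patterns over the 6 lists were judged by their ratio to the main value instead. With all lists at the length of the shortest, regions in both HPC lists and no HSC list were 4.72% (7.69% of all), inside the main interval of 1.85 to 5.13. Those in all 4 HSC lists and no HPC list were 5.97% (5.48% of all) at that length. With the weakest 25% removed, the latter were 1.89% (2.20% of all), inside the main interval of 0.345 to 2.25.

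Net numbers of list-specific regions changed sign in 14 checks, a check being 1 named gene in 1 comparison under 1 alternative. For KO against WT HSC, with the weakest 25% removed, the net was 3 for Aurkb, 1 for Cdc25c and 1 for Mki67, and it was 1 for Cdc25c also within 10 kb and by nearest gene of all. For KO against WT HPC it was -2 for Aurkb with the weakest 25% removed and 1 for Bub1b and 1 for Cdc25b at equal length. For 5-FU against PBS HSC it was -1 for E2f8 with the weakest 25% removed, and 1 for Bub1b and 2 for Cdc6 at equal length. For KO HPC against KO HSC it was -1 for Aurkb, 1 for Mcm2 and 1 for E2f4 with the weakest 25% removed. The cause was not tested, other than that equal length removes the weakest regions of the longer list. Of the other checks of named genes 130 held and 120 moved in size. For the main shares, patterns and counts of open starts, 83 checks held and 25 moved. Shares without overlap held if they stayed inside their main interval, and other values if they stayed within a fixed ratio of the main value. Counts of open starts were 37 to 41 under every alternative, and taking either gene end for every gene, an alternative chosen after seeing the data, gave the same counts.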
